A study of Mus musculus with 9 samples.

Results

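Rab GTPases were taken as the genes whose symbol is Rab, a number and at most 1 further letter, and whose mean over 9 libraries of sorted mouse B cells was 1 FPKM or more. FPKM is fragments per kilobase of transcript, scaled to the mapped reads of the library, so levels can be compared between genes of different length. The pattern matched 59 of the 24346 genes measured, and 40 of them passed the level and are described here. Of the 19 below it, Rab40b was at 0 in every library and only Rab39b reached 1 FPKM in any. The member just inside the limit was Rab6b at a mean of 1.89 FPKM, and the genes just outside were Rab39b at 0.569 and Rab33a at 0.366 FPKM.

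The cells came from spleens of C57BL6 wild-type mice and carried no transgene or deletion. Follicular (FO) B cells, sorted as B220hi CD43- CD23+ CD21lo cells, were profiled at 8 weeks of age (young) and at 50 weeks (aged), with 3 libraries each. Age-associated B cells (ABCs), sorted as B220hi CD43- CD23- CD21lo cells positive for CD11b and CD11c, were profiled at 50 weeks only, again with 3 libraries. The study compared the subsets to find what distinguishes the transcriptome of ABCs, a T-bet-expressing population that accumulates with age and in autoimmunity. No young ABC group was among the libraries, so age cannot be examined within ABCs.

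Rab proteins are small GTPases that mark the membranes of the secretory and endocytic routes. They are prenylated, loaded with GTP by guanine nucleotide exchange factors (GEFs), recruit effectors such as tethers and motor adaptors while GTP-bound, and are switched off by GTPase-activating proteins (GAPs), after which GDP dissociation inhibitor (GDI) extracts them from the membrane. In B cells these routes carry the B cell receptor and its antigen to late endosomes for loading on MHC class II, return receptors to the surface and export immunoglobulin.

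The libraries held about 7260000 to 8830000 mapped reads, an approximation from the FPKM steps of 1890 genes with a single transcript, and 10032 to 10445 genes at 1 FPKM or more. Of the sort markers, Fcer2a (CD23) was at 697 to 728 FPKM in aged FO B cells against 0.463 to 6.95 in ABCs, and Itgax (CD11c) at 0.0322 to 0.206 against 45.0 to 59.7. Cr2 (CD21) was at 127 to 166 against 0.745 to 8.39 FPKM, although both populations were gated as CD21lo. B-lineage marker genes were detected in all libraries. ABC replicate 3 stood apart: it was the highest or the lowest of the 9 libraries for 24 of the 40 Rab genes (60%), against 45.5% of all genes tested. The median coefficient of variation over the Rab genes was 7.8% among young FO B, 5.66% among aged FO B and 9.08% among ABC libraries. RNA was measured in bulk, so fewer cells of a type and less RNA per cell cannot be told apart.

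Mean Rab mRNA levels ranged from 1.89 to 174 FPKM. The most abundant was Rab7, which drives fusion of late endosomes with lysosomes. It was followed by Rab8a, a regulator of exocytosis and of primary cilia, at 151 FPKM and by Rab4b, a Rab of fast endocytic recycling, at 140.0 FPKM. Rab2a of the Golgi at 100.9 FPKM and Rab14 of the endosome and trans-Golgi at 95.2 FPKM came next, and these 5 genes made up 42.2% of the summed FPKM of the family. Rab7 and Rab8a differed beyond their spread in ABCs, at 187 to 196 and 131 to 148 FPKM, and were closer in young FO B cells, at 164 to 165 and 155 to 157 FPKM. Rab2a and Rab14 lay within each other's spread in ABCs, at 99.2 to 111 and 97.6 to 106 FPKM. Of the 40 genes, 30 had a mean of at least 10 FPKM and 8 had less than 5. All 40 had a group mean of at least 1 FPKM in each group, and 38 reached 1 FPKM in each of the 9 libraries, the exceptions being Rab32 and Rab6b in ABC replicate 3. Summed over the 40 genes, FPKM was 1465 to 1496 in young FO B, 1498 to 1548 in aged FO B and 1677 to 1733 in ABCs, which was 0.213% to 0.218%, 0.209% to 0.227% and 0.235% to 0.245% of all FPKM of the library.

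**Figure D1:**
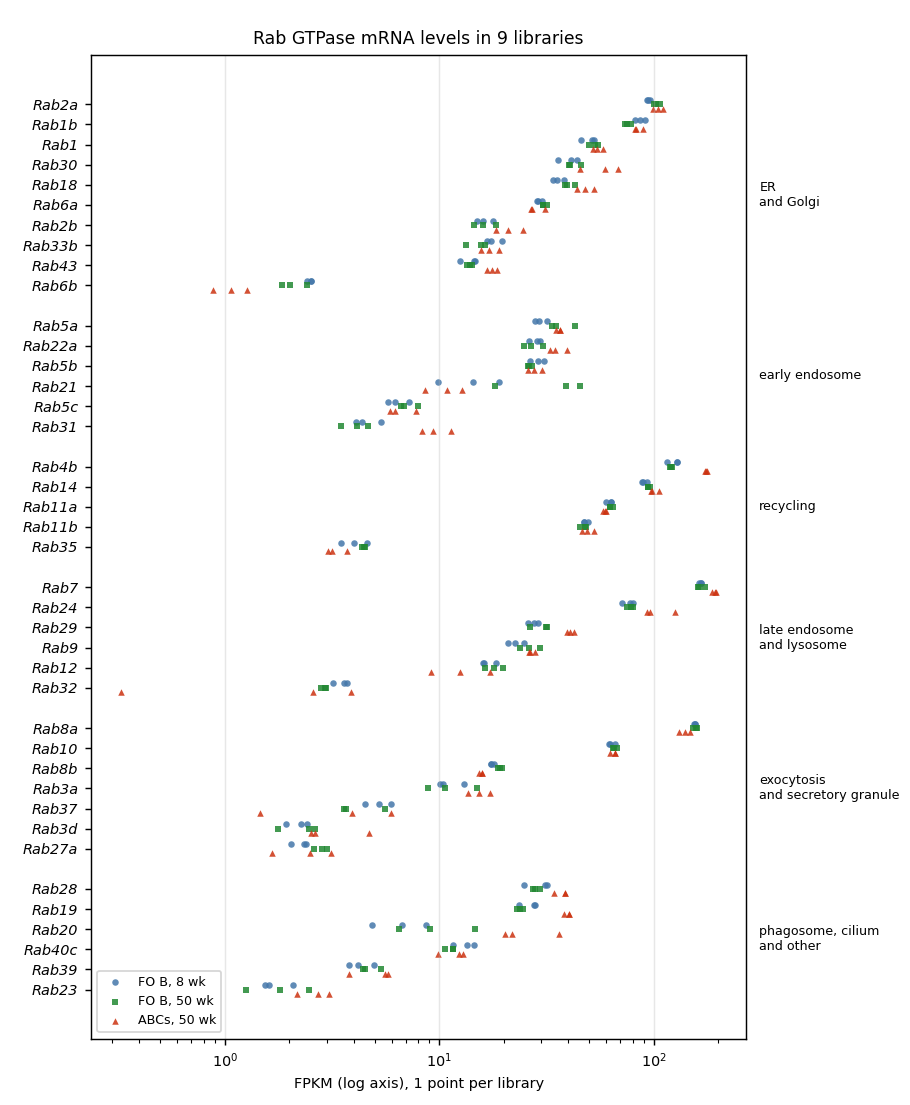
FPKM of the 40 Rab genes on a log axis, 1 point per library, ordered by role and then by mean level. Most genes form a tight column over the 9 libraries, while Rab21 and Rab20 spread widely and Rab32 has 1 ABC library at 0.328 FPKM.

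ABCs were compared with FO B cells of the same age with limma on log2(FPKM + 1), and a gene was called at a Benjamini-Hochberg FDR under 0.05 over all 10412 genes tested. Of the 40 Rab genes, 13 (32.5%) were called, against 35.9% of all genes. Of these 10 were higher in ABCs (25%, against 19.4% of all genes) and 3 were lower (7.5%, against 16.5%). The higher genes were Rab20, Rab31, Rab19, Rab4b, Rab29, Rab24, Rab28, Rab22a, Rab43 and Rab7, and the lower genes were Rab21, Rab6b and Rab8b. The median log2 fold change was 0.064 over the Rab genes and -0.011 over all genes, and the median absolute change was 0.263 and 0.267. With quantile normalization the calls were 8 higher and 5 lower, with Rab7 and Rab24 no longer called and Rab8a and Rab35 called. Over all 10412 genes 16.7% were then higher and 20.6% lower, so rises became fewer and decreases more frequent there too. The libraries of the 2 groups did not overlap for 19 of the 40 genes (47.5%), against 52.6% of all genes, with ABCs higher for 13 (32.5%, against 26.3%) and lower for 6 (15%, against 26.3%). An absolute log2 fold change above 1 was called for 3 genes (7.5%, against 10.2%). In 3 libraries against 3 an exact permutation test of a single gene (two-sided) cannot go below p = 0.1, so calls rest on the variance that limma shares across genes.

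**Figure D2:**
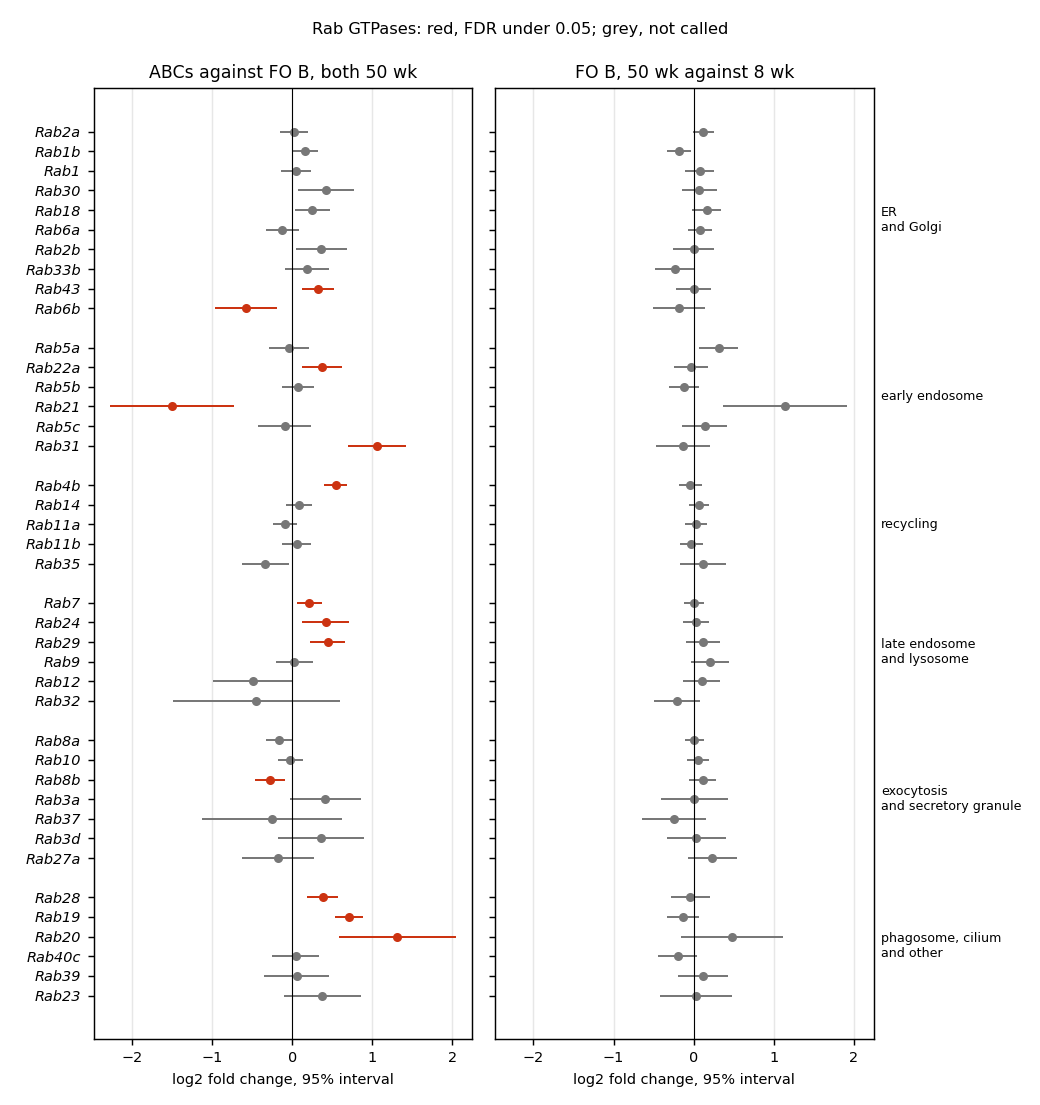
Log2 fold change on the log2(FPKM + 1) scale with its 95% interval for the 40 Rab genes, comparing ABCs with aged FO B cells (left) and in aged against young FO B cells (right), with called genes in red. On the left 10 genes lie above 0 and 3 below among those called, and on the right none was called.

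Markers of other cells moved between the same groups. The summed FPKM of 7 plasma cell genes was 976 to 1275 in ABCs against 444 to 471 in aged FO B cells. Most of it was Mzb1, called higher, at 769 to 1050.0 FPKM in ABCs against 297 to 327. Jchain, Sdc1 and Prdm1 were also called higher in ABCs, with Jchain at 12.5 to 61.6 FPKM there and Sdc1 at 9.54, 8.37 and 29.5. Xbp1 (FDR 0.084) and Irf4 (FDR 0.49) were not called, and Tnfrsf17 was below the level of testing. Of 10 T cell genes only Cd3g reached 1 FPKM in ABCs, at 4.93 to 37.0, and of 8 NK cell genes only Prf1, at 24.1 to 38.0, with Gzmb and Klre1 at 0. The 14 macrophage and monocyte genes summed to 81.5 to 92.8 FPKM in ABCs, of which Ly6c2 gave 61.3 to 84.1, against 15.2 to 23.8 in aged FO B cells. The 8 dendritic cell genes summed to 253 to 261 FPKM in ABCs against 249 to 309, of which Ccr7 gave 244 to 250 and 246 to 304. Of the 4 tested, 2 were called higher in ABCs. Batf3 was at 1.99 to 9.46 FPKM against 0 in each aged FO B library, and Zbtb46 at 2.9 to 3.34 against 0.437 to 1.46. Both had a mean below 1 FPKM in aged FO B cells and entered the test through their ABC values. Ccr7 (FDR 0.195) and Flt3 (FDR 0.0862) were not called, and Flt3 went the other way, at 0.105 to 1.17 FPKM in ABCs against 1.11 to 2.85. Siglech, below the level of testing, was at 0.664 to 1.56 against 0 to 0.36 FPKM. Neutrophil genes summed to 0.45 to 1.6 against 1.18 to 24.5 with S100a8 and Elane at 0 in ABCs, and platelet and erythroid genes to 1.28 to 3.26 against 0.184 to 2.22. Their part in the Rab results was not tested.

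The largest rise was that of Rab20, a Rab of phagosome and endosome maturation. Its FPKM was 6.53, 14.7 and 9.07 in the aged FO B libraries and 20.4, 21.9 and 36.4 in the ABC libraries, with 4.87, 6.71 and 8.68 in young FO B cells. The ABC libraries were all above the 6 FO B libraries, and ABC replicate 3 was well above the other ABC libraries. The log2 fold change was 1.31 (SE 0.31, 95% interval 0.60 to 2.03, FDR 0.0145). Whole reads could be recovered from the FPKM of Rab20, and they were few: 142 in the 3 aged FO B libraries and 339 in the 3 ABC libraries, and these may be too low if a read is worth less than the smallest step seen. Without aged FO B replicate 3 the FDR was 0.0521.

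Rab31, an early endosome and trans-Golgi Rab of the Rab5 group, had 3.5, 4.67 and 4.16 FPKM in aged FO B and 8.28, 9.35 and 11.3 in ABC libraries, beside 5.37, 4.35 and 4.09 in young FO B. Again no ABC library overlapped with any FO B library. The log2 fold change was 1.06 (SE 0.15, 95% interval 0.71 to 1.40, FDR 0.00182), and the FDR was at most 0.00981 under the alternatives of pseudocount, filter, scaling, fit and libraries. Its reads summed to 365 in aged FO B cells and 805 in ABCs.

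Rab21, an early endosome Rab known for the traffic of integrins, had the largest decrease. The aged FO B libraries held 45.4, 39.2 and 18.1 FPKM, the ABC libraries 12.8, 10.9 and 8.55 and the young FO B libraries 9.91, 14.3 and 19. All ABC libraries were below all aged FO B libraries, but aged FO B replicate 3 lay within the range of the young ones, and the ABC libraries overlapped with young FO B. The log2 fold change in ABCs against aged FO B was -1.51 (SE 0.32, 95% interval -2.27 to -0.75, FDR 0.0105), and it ranged from -1.90 to -1.26 when a library was left out, with the gene called each time. Its recovered reads summed to 615, 1482 and 442 in young FO B, aged FO B and ABCs, and, as for Rab20, these may be too low.

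The sequence before the start site is shown for these 3 genes, the members called with an absolute log2 fold change of at least 1, as the stretch of the 250 bases before the RefSeq start (GRCm38.p6) that lies outside the gene in GENCODE M21. All are on the minus strand and written 5′ to 3′ along the gene. Capitals mark a GC box (GGGCGG on either strand, an SP-type element) and an E-box (CACGTG, bound by MYC and USF type factors). Rab20 lies on chromosome 8 (chr8:11478711-11478890), Rab21 on chromosome 10 (chr10:115315595-115315841) and Rab31 on chromosome 17 (chr17:65772753-65773002).
Rab20: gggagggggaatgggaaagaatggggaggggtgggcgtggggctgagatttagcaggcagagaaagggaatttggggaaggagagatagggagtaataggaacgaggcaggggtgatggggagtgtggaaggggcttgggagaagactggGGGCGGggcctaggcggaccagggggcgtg
Rab21: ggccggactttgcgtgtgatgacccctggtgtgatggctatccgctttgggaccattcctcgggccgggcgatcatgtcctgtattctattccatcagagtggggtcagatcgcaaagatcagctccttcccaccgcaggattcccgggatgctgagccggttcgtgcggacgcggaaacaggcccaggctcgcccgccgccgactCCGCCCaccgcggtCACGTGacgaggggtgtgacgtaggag
Rab31: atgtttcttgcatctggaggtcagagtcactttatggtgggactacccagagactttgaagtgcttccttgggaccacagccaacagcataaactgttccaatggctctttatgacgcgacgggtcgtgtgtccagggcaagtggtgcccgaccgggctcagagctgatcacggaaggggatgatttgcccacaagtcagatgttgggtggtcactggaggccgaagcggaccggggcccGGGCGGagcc
In the 250 bases, the GC box began 100 bases before the RefSeq start of Rab20, 44 before that of Rab21, where it reads CCGCCC, and 10 before that of Rab31. The E-box began 30 bases before the start of Rab21 and 46 before that of Rab20, the latter inside the GENCODE gene and therefore not shown. Rab20, which rose, and Rab21, which fell, thus shared both elements. Over the 36 members with a RefSeq promoter, 28 (77.8%) held the GC box, against 58% of the 10098 promoters of tested genes, and 5 (13.9%) held the E-box, against 8.76%. The other 3 with an E-box were Rab5a, Rab23 and Rab27a, none of which was called in ABCs against aged FO B cells. An ETS element (CCGGAAG) was found in 3 members (8.33%, against 15.2%) and a T-box element (AGGTGTGA) in 1, Rab27a (2.78%, against 0.663%). The median GC content of the windows was 63.2% in members and 59.6% in tested genes. Such matches describe letters in a window and not binding. Rab2a, Rab18, Rab30 and Rab37 were not matched.

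**Figure D3:**
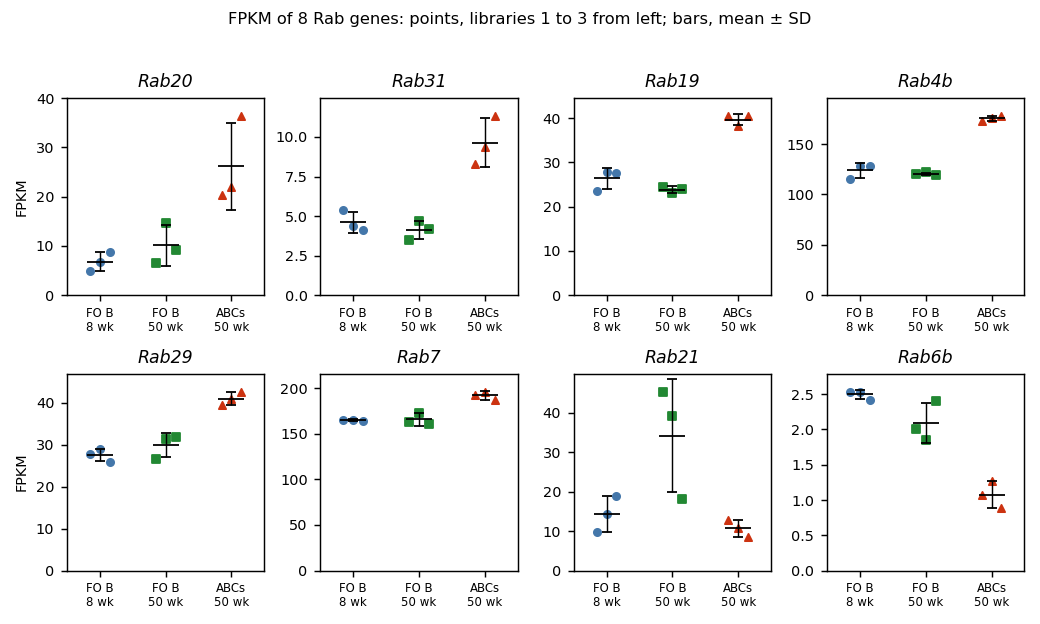
FPKM of 8 Rab genes in each library, with mean ± SD (n = 3) per group, on axes that start at 0. Rab20, Rab31, Rab19, Rab4b, Rab29 and Rab7 are higher in all 3 ABC libraries than in all 6 FO B libraries, Rab6b is lower in all 3, and Rab21 stands out in 2 of 3 aged FO B libraries.

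Among the 10 Rab genes of the endoplasmic reticulum (ER) and Golgi, 1 was higher and 1 lower in ABCs. In the 6 role groups, in the order described from here, 10%, 33.3%, 20%, 50%, 0% and 50% of the genes were called higher. Called lower were 10%, 16.7%, 0%, 0%, 14.3% and 0%. Over all genes the shares were 19.4% higher and 16.5% lower, and each role group holds only 5 to 10 genes. Rab43, a Golgi Rab, rose from 13.9 ± 0.334 to 17.6 ± 0.941 FPKM (SD, n = 3), a log2 fold change of 0.32 (FDR 0.0191) that was lost without aged FO B replicate 1 (0.067) or 3 (0.0589). Rab6b, the less abundant of the Rab6 paralogues of retrograde Golgi transport, had 2.01, 1.85 and 2.41 FPKM in aged FO B and 1.08, 1.27 and 0.881 in ABC libraries, with a log2 fold change of -0.57 (FDR 0.0281). Without any single aged FO B library, or without ABC replicate 1 or 3, the FDR of Rab6b was 0.0521 to 0.099. Its paralogue Rab6a was at 30.9 ± 0.883 and 28.3 ± 2.32 FPKM and was not called, at -0.12 (FDR 0.272). Rab30, a Golgi Rab, was at 45.9, 40.6 and 40.5 FPKM in aged FO B and 67.9, 59.2 and 45.6 in ABC libraries, of which the third overlapped with FO B. Its log2 fold change of 0.42 missed the threshold at an FDR of 0.0566 and passed it without ABC replicate 3, at 0.00319. Rab18, linked to lipid droplets and the ER, had 0.25 (FDR 0.0639), and Rab2b had 0.37 (FDR 0.0664). Rab18 was called without ABC replicate 2 (FDR 0.0412) and Rab2b without ABC replicate 3 (FDR 0.0253). The ER exit Rabs Rab1 and Rab1b had 0.05 (FDR 0.621) and 0.16 (FDR 0.101). Rab2a differed by 0.02 with a 95% interval of -0.14 to 0.18, and Rab33b, which binds the autophagy protein Atg16l1, by 0.18 with an interval of -0.08 to 0.44.

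Of the 6 early endosome Rab genes, Rab31 and Rab22a were higher and Rab21 was lower in ABCs. Rab22a, which acts between early and recycling endosomes, had 25, 30.4 and 26.7 FPKM in aged FO B and 32.9, 34.7 and 39.3 in ABCs, a log2 fold change of 0.37 (FDR 0.0277). The call of Rab22a was lost without aged FO B replicate 1 (FDR 0.0955) or 3 (0.0866) and without ABC replicate 2 or 3 (0.0534 each). The 3 Rab5 isoforms, which organise early endosome fusion, were not called. Rab5a, Rab5b and Rab5c had log2 fold changes of -0.04 (interval -0.28 to 0.20), 0.07 (-0.12 to 0.26) and -0.10 (-0.41 to 0.22).

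Of the 5 recycling Rab genes, only Rab4b was called. Its FPKM was 120.2, 122 and 119 in aged FO B and 173, 176 and 178 in ABC libraries, with 116, 128 and 128 in young FO B. Both aged groups were narrow, with a coefficient of variation of 1.16% and 1.32%, and were far apart. The log2 fold change of 0.54 (SE 0.05, 95% interval 0.41 to 0.67, FDR 0.000433) had the smallest FDR of the family after that of Rab19, and in mean FPKM the difference was the largest of the 40 genes. Rab11a and Rab11b of the recycling endosome differed by -0.09 (interval -0.23 to 0.04) and 0.05 (-0.12 to 0.23), and Rab14 by 0.08 (-0.06 to 0.23). Rab35, a plasma membrane recycling Rab at 4.44 ± 0.0769 FPKM in aged FO B and 3.32 ± 0.365 in ABCs, was not called, at -0.34 (FDR 0.0653), although its libraries did not overlap. With quantile normalization its FDR was 0.0259.

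Of the 6 late endosome and lysosome Rab genes, Rab7, Rab24 and Rab29 were higher in ABCs and none was lower. Rab7 had 163, 173 and 161 FPKM in aged FO B and 193, 196 and 187 in ABC libraries, a log2 fold change of 0.21 (FDR 0.0304) that was lost with quantile normalization (FDR 0.122). The call of Rab7 was also lost when libraries were scaled by upper quartile (0.0577) or to TPM (0.0794), when limma was run without its trend (0.0708), without aged FO B replicate 1 or 3 (0.102 and 0.101) and without ABC replicate 1 or 2 (0.0836 and 0.0784). Rab29, which recruits the kinase Lrrk2 to membranes, rose from 30 ± 2.89 to 41 ± 1.64 FPKM, a log2 fold change of 0.44 (FDR 0.00798). Rab24, an atypical Rab linked to autophagy, had 78.7, 74.9 and 80 FPKM in aged FO B and 92.9, 96.2 and 126 in ABCs, where replicate 3 was far above the others, and a log2 fold change of 0.42 (FDR 0.0311). Leaving out any single aged FO B library ended that call, at an FDR of 0.0748 to 0.0913. Rab9, which returns mannose 6-phosphate receptors to the Golgi, differed by 0.03 (interval -0.19 to 0.25). Rab12 and Rab32, the latter a Rab of lysosome-related organelles, were spread in ABCs. Rab12 had 12.5, 17.3 and 9.14 FPKM there and a log2 fold change of -0.49 (FDR 0.102), which was -0.71 (FDR 0.0171) without ABC replicate 2 and -0.28 (FDR 0.185) without replicate 3. Rab32 had 3.9, 2.57 and 0.328 FPKM, the last from 5 reads, and its log2 fold change was -0.45 with all libraries and 0.10 without ABC replicate 3. The summed FPKM of the late endosome group was 313 to 325 in aged FO B and 370 to 392 in ABCs.

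Of the 7 exocytosis and secretory granule Rab genes, none was higher and Rab8b was lower. Rab8b had 19.7, 19.2 and 18.8 FPKM in aged FO B and 15.4, 15.9 and 15.8 in ABC libraries, a difference of -0.28 (FDR 0.0242) on the log2 scale. Without any single aged FO B library, or without ABC replicate 1, the FDR of Rab8b was 0.0607 to 0.0836. The more abundant Rab8a had 157, 153 and 159.7 against 139.6, 148 and 131 FPKM, also without overlap, but was not called, at -0.16 (FDR 0.0947). With quantile normalization Rab8a was called, at an FDR of 0.0409. Rab10, also of exocytosis, differed by -0.02 (interval -0.17 to 0.12). Rab3a and Rab3d, known from regulated secretion, had 0.41 (FDR 0.121) and 0.36 (FDR 0.25). Rab3a was called without aged FO B replicate 1, at 0.61 (FDR 0.0281), and was at 0.26 (FDR 0.306) without replicate 2. Rab27a, which docks secretory lysosomes, was at 2.83 ± 0.192 and 2.43 ± 0.744 FPKM, with -0.18 (FDR 0.48). Rab37 had 3.93, 5.95 and 1.46 FPKM in ABCs, and its log2 fold change of -0.25 turned to 0.17 without ABC replicate 3. The summed FPKM of these 7 genes was 256 to 268 in aged FO B and 238 to 252 in ABCs, the only role group whose sum was lower in all ABC libraries.

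Of the 6 remaining Rab genes, Rab20, Rab19 and Rab28 were higher in ABCs. Rab19, a Rab linked to the Golgi and to ciliogenesis, had 24.5, 23 and 23.9 FPKM in aged FO B, 40.4, 38.2 and 40.4 in ABCs and 23.5, 27.9 and 27.6 in young FO B. Its log2 fold change of 0.71 (SE 0.07, 95% interval 0.55 to 0.87, FDR 0.000373) had the smallest FDR of the family. Rab28, known from photoreceptor cilia, rose from 28.3 ± 1.19 to 37.1 ± 2.58 FPKM, a log2 fold change of 0.38 (FDR 0.00965). Rab23, a regulator of Hedgehog signalling, had 0.38 (FDR 0.177), Rab39, a Rab of phagosomes and autophagy, 0.06 (FDR 0.816), and Rab40c, which carries a SOCS box of ubiquitin ligases, 0.04 (FDR 0.802). The sum of the 6 genes was 77.1 to 84.3 FPKM in aged FO B and 111 to 136 in ABCs.

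Leaving out libraries changed the count of calls. It was 6 without aged FO B replicate 3 and 8 without replicate 1, and 13 without ABC replicate 3, of which 11 were among the original 13. The share of all genes called was not taken in these fits. A loss particular to Rab genes therefore cannot be told from a general one. Rab19, Rab4b, Rab31, Rab29, Rab28 and Rab21 kept an FDR under 0.05 in each of the 16 alternatives of pseudocount, filter, scaling, fit and libraries. At the stricter thresholds, an FDR under 0.01 left 5 of the 13 genes and an absolute log2 fold change above 1 left 3.

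Age within FO B cells was examined by comparing aged with young FO B cells. None of the 40 Rab genes was called, against 0.464% of the 10122 genes tested with limma (0.346% higher and 0.119% lower). At an unadjusted p under 0.05, 5 Rab genes (12.5%) passed, against 12.8% of all genes, namely Rab21, Rab1b, Rab5a, Rab2a and Rab33b. The median absolute log2 fold change was 0.114 over the Rab genes and 0.094 over all genes. Rab21 had the largest difference, 1.14 (SE 0.33, 95% interval 0.38 to 1.90, FDR 0.201), from 14.4 ± 4.52 to 34.3 ± 14.3 FPKM (SD, n = 3). Aged FO B replicates 1 and 2 were above the highest young library, and replicate 3 was not. Without aged FO B replicate 3 the gene was called, at a log2 fold change of 1.53 and an FDR of 0.0371. Rab5a was at 28, 29.2 and 31.9 FPKM in young and 35.2, 43.1 and 33.7 in aged FO B cells, without overlap, at 0.31 (FDR 0.242). Rab1b was at 86.5, 90.7 and 82.1 and 75.1, 73.8 and 78.7 FPKM, lower with age in all libraries, at -0.19 (FDR 0.237). The largest difference after that of Rab21 was 0.48 for Rab20, with an interval of -0.14 to 1.1 and overlapping libraries. The groups did not overlap for 11 of the 40 genes (27.5%), against 18.6% of all genes, with aged FO B higher for 7 (17.5%, against 9.64%) and lower for 4 (10%, against 8.96%).

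ABCs were also set against young FO B cells, where subset and age differ together and the same ABC libraries enter. Of the 40 Rab genes, 16 (40%) were called, against 40.7% of 10438 genes. Of these 15 were higher (37.5%, against 21.6%) and only Rab6b was lower (2.5%, against 19.1%), at -0.76 (FDR 0.00567). The 10 genes higher than in aged FO B cells had log2 fold changes here of 1.79 for Rab20, 0.92 for Rab31, 0.58 for Rab19, 0.56 for Rab29, 0.50 for Rab4b, 0.44 for Rab24, 0.34 for Rab28, 0.33 for Rab22a, 0.32 for Rab43 and 0.22 for Rab7, all called. The other 5 were Rab30 at 0.49 (FDR 0.0363), Rab3a at 0.43 (FDR 0.0358), Rab18 at 0.41 (FDR 0.0088), Rab2b at 0.36 (FDR 0.0479) and Rab5a at 0.28 (FDR 0.0219). Rab21 and Rab8b, lower than in aged FO B cells, had -0.37 (FDR 0.247) and -0.16 (FDR 0.111) against young FO B cells and were not called. The groups did not overlap for 23 genes (57.5%, against 55.3%), with ABCs higher for 20 (50%, against 27.7%) and lower for 3 (7.5%, against 27.6%), and Rab20 alone was called with an absolute log2 fold change above 1 (2.5%, against 10.9%). The count of calls was 8 without young FO B replicate 1, 8 without replicate 2 and 9 without replicate 3, and the share of all genes called was not taken there either. Rab6b, Rab18, Rab19, Rab20, Rab29, Rab31 and Rab4b kept an FDR under 0.05 in this comparison in each alternative of pseudocount, filter, scaling, fit and libraries that they entered, and the other 9 genes lost the call in at least 1.

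Paralogues of a subfamily were compared as shares of their summed FPKM in each library. Rab31 made up 13 ± 0.652% (SD, n = 3) of Rab22a and Rab31 in aged FO B cells and 21.2 ± 1.14% in ABCs, with 14.1 ± 1.46% in young FO B. The Rab6b share of the Rab6 pair was 7.47 to 8.11% in young FO B, 5.75 to 7.02% in aged FO B and 2.76 to 4.46% in ABCs, with no overlap between any pair of groups. The Rab5a share of the 3 Rab5 genes was 42.9 to 49.7% in young FO B, 50.9 to 55.7% in aged FO B and 49.1 to 53.5% in ABCs, so the FO B groups did not overlap and the aged groups did. Rab4b gave at least 99.6% of the Rab4 pair, Rab7 at least 99.8% of Rab7 and Rab7b, and Rab8a 88.8% to 90.3% of the Rab8 pair in all libraries. Reads shared between near-identical paralogues may have been divided by the FPKM software, so these shares are estimates.

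**Figure D4:**
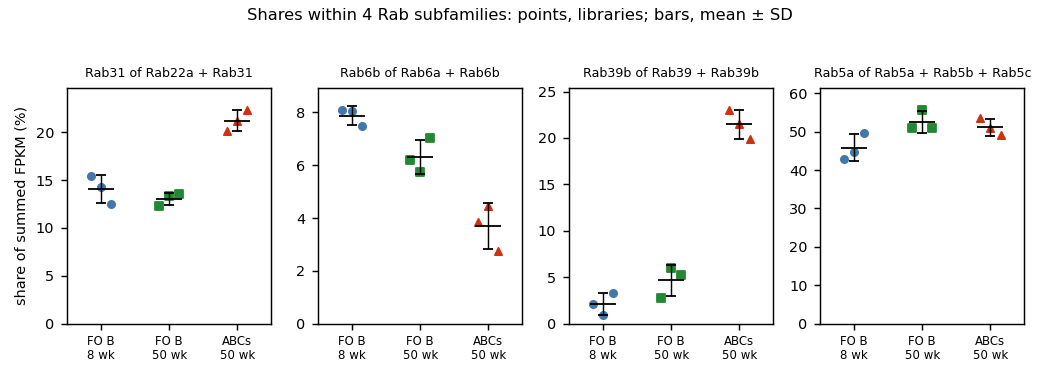
Share of the summed FPKM of a subfamily (%) in each library, with mean ± SD (n = 3), for Rab31, Rab6b, Rab39b and Rab5a. In ABCs the Rab31 and Rab39b shares lie above all FO B libraries and the Rab6b share below them, while the Rab5a share overlaps with aged FO B.

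The largest shift in share belonged to a gene below the level of the members. Rab39b, the paralogue of Rab39, had 0.154, 0.285 and 0.246 FPKM in aged FO B and 1.68, 1.04 and 1.44 in ABC libraries, from 20 and 112 reads, with 0.106, 0.0356 and 0.142 in young FO B. Its share of the Rab39 pair was 4.66 ± 1.67% in aged FO B and 21.5 ± 1.56% in ABCs, while Rab39 itself was at 4.77 ± 0.53 and 5.06 ± 1.1 FPKM. Without the filter on low values, 2 of the 17 genes of the pattern below 1 FPKM that entered the fit were called (11.8%, against 18.5% of 18877 genes), Rab39b with a log2 fold change of 0.95 (SE 0.13, FDR 0.0047) and Rab3b with 0.39 (FDR 0.0289). Against young FO B cells 1 of 17 was called in such a fit (5.88%, against 20.3%), Rab39b with 1.12, and between the FO B groups 0 of 18 (against 0.0829%). Rab3b was at 0 in all aged FO B libraries and at 0.47, 0.319 and 0.155 FPKM in ABCs. Rab4a, Rab7b, Rab13, Rab15, Rab17, Rab25, Rab26, Rab27b, Rab34, Rab38 and Rab44, among others, stayed below 1 FPKM in every library.

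The regulators and effectors of Rab proteins were taken as 144 genes, of which 111 were tested in ABCs against aged FO B cells. Of these, 42 (37.8%) were called, against 35.9% of all genes, with 22 higher and 20 lower. With quantile normalization the split was 17 higher and 25 lower. In the prenylation and GDI group 1 of 8 was higher and 2 were lower, in the GEF group 7 of 33 were higher and 7 lower, in the GAP group 2 of 26 were higher and 5 lower, and in the effector group 12 of 44 were higher and 6 lower. These are 12.5%, 21.2%, 7.69% and 27.3% higher and 25%, 21.2%, 19.2% and 13.6% lower, against 19.4% and 16.5% of all genes. With quantile normalization the groups held 1, 5, 0 and 11 higher and 4, 9, 5 and 7 lower genes, beside 16.7% higher and 20.6% lower over all genes.

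**Figure D5:**
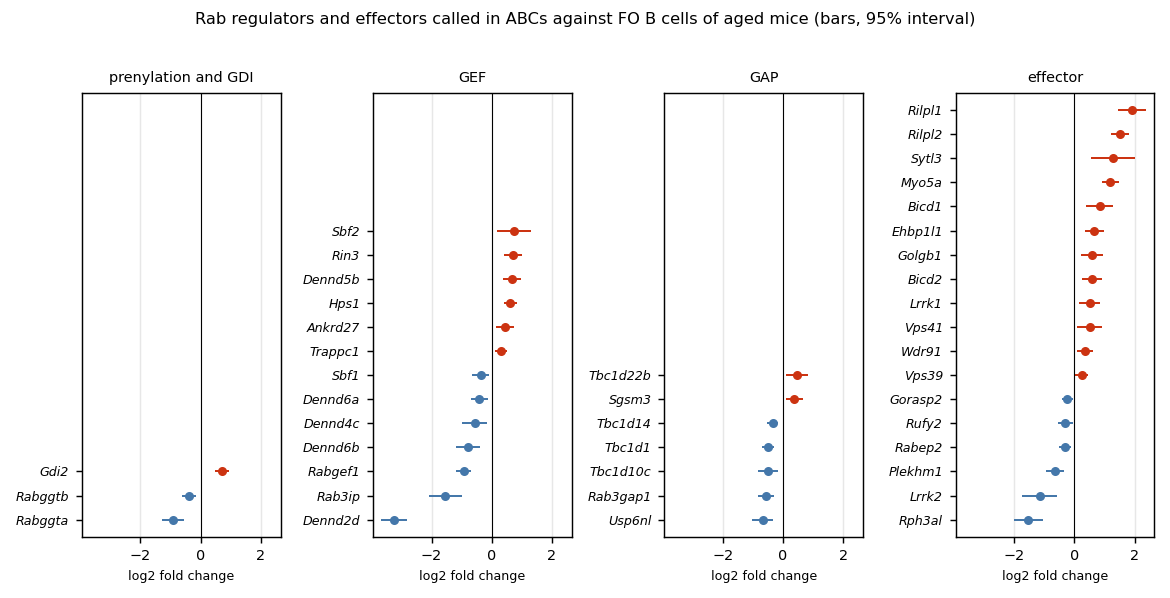
Log2 fold change with its 95% interval for ABCs relative to aged FO B cells, shown for 41 of the 42 called regulators and effectors, by group, with rises in red and decreases in blue. The effector panel holds 12 rises and 6 decreases, and Dennd2d is the most negative at -3.25.

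Gdi2, a GDI that extracts Rab proteins from membranes, had 252, 272 and 257 FPKM in aged FO B and 407, 402 and 479 in ABC libraries, a log2 fold change of 0.72 (FDR 0.000894). Both subunits of the Rab prenyl transferase were lower, Rabggta at -0.91 (FDR 0.00272) and Rabggtb at -0.39 (FDR 0.0124).

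Among exchange factors the largest decrease was that of Dennd2d, a DENN domain protein, with 25.5, 29 and 26.9 FPKM in aged FO B and 2.28, 2.44 and 1.29 in ABC libraries and a log2 fold change of -3.25 (FDR 2.74e-05). Rab3ip (Rabin8), an exchange factor of Rab8, had 17.3, 13.3 and 17.5 against 7.17, 4.22 and 3.66 FPKM and -1.54 (FDR 0.00207), beside the lower Rab8b. Of the exchange factors known to act on Rab31 and Rab21, Rin3 was higher at 0.71 (FDR 0.00318), Ankrd27 (Varp) was higher at 0.45 (FDR 0.0189), Rabgef1 (Rabex-5), which also acts on Rab5, was lower at -0.94 (FDR 0.00051), and Gapvd1 was not called at -0.02 (FDR 0.864). The call of Ankrd27 was lost without aged FO B replicate 2 or 3 and without ABC replicate 1, at an FDR of 0.0516 to 0.0604.

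Among effectors the largest rises on the log2(FPKM + 1) scale were those of Rilpl1 and Rilpl2, which bind Rab8 and Rab10 once Lrrk2 has phosphorylated them. Rilpl2 had 30.9, 33.8 and 24.8 FPKM in aged FO B and 87.9, 83.1 and 85.4 in ABC libraries, at 1.5 (FDR 0.000144). Rilpl1 was low in FO B cells, at 0.543, 0.397 and 0.165 FPKM, and had 3.47, 4 and 5.04 in ABCs, at 1.92 (FDR 0.000391). Lrrk2 itself, the kinase that Rab29 recruits, was lower, with 70.6, 70.2 and 64.9 against 40.7, 33.8 and 20 FPKM and -1.15 (FDR 0.00765), whereas Rab29 and Lrrk1 were higher, the latter at 0.52 (FDR 0.0229). Sytl3, a Rab27 effector, was at 0.0951, 0.235 and 0.087 FPKM in aged FO B and 1.74, 3.15 and 0.839 in ABCs, at 1.28 (FDR 0.0151). As a ratio of mean FPKM it rose the most among the effectors tested, 13.8-fold against 11.3-fold for Rilpl1 and 2.87-fold for Rilpl2. Sytl3 and Rilpl1 reached the level of testing only through their ABC values, so this order depends on the filter. Effectors below that level were not ranked, such as Rab11fip4 with 1 read in aged FO B cells and 26 in ABCs. Myo5a, a myosin that Rab27a and Rab10 use, had 1.19 (FDR 0.00032). Rph3al (Noc2), which binds Rab3 and Rab27, fell from 2.71 ± 0.178 to 0.297 ± 0.258 FPKM, at -1.53 (FDR 0.00112). Of the Rab7 effectors, Plekhm1 was lower at -0.63 (FDR 0.00537), while Wdr91 at 0.35 (FDR 0.0364), Vps39 at 0.24 (FDR 0.0457) and Vps41 at 0.51 (FDR 0.0435), the last 2 being subunits of the HOPS tether, were higher. Sytl3 entered 12 alternatives, and leaving out aged FO B replicate 1 or 3 ended its call, at an FDR of up to 0.0532. Without ABC replicate 1 or 2 the mean of Sytl3 was below 1 FPKM, so it was not tested. The calls of Lrrk1, Wdr91, Vps39 and Vps41 were lost in 5, 8, 12 and 6 of 16 alternatives. Of the Rab5 effectors, Rabep2 was lower at -0.31 (FDR 0.0119), and Eea1 and Appl1 were not called, at -0.13 (FDR 0.415) and -0.10 (FDR 0.553).

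Between aged and young FO B cells, 2 of 107 regulators and effectors (1.87%) were called, against 0.464% of all genes. Tbc1d10b, a Rab GAP, had 9.88, 9.92 and 11.5 FPKM in young and 15.8, 16.5 and 15.6 in aged libraries, at 0.57 (FDR 0.0403). Lrrk2 had 50.2, 52 and 53.9 FPKM in young and 70.6, 70.2 and 64.9 in aged libraries, at 0.39 (FDR 0.0404), so its level was highest in aged FO B cells, intermediate in young FO B cells and lowest in ABCs. Of the 16 alternatives run for each, 10 ended the call of Tbc1d10b and 11 that of Lrrk2, with an FDR of up to 0.179 and 0.618.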

How the data were processed

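RNA-seq of 9 libraries was used, 3 each of FO B cells at 8 weeks, FO B cells at 50 weeks and ABCs at 50 weeks, grouped by the sample titles. The values deposited by the authors are FPKM, given once for each gene symbol in a library. Per the study's methods, RNA of sorted cells was converted with a SMART-Seq HT kit and single-end reads were mapped to mm10. The submitters' processing notes name TopHat2 2.1.1, Bowtie2 2.2.8, SAMtools 0.1.18 and Cuffdiff 2.2.1, whereas the study's methods name other TopHat, Bowtie2 and SAMtools versions and Cufflinks for the FPKM. How FPKM was scaled between libraries is therefore uncertain, and so is the depth estimated from it. The annotation and the use of strand are not given in the sources used here, so reads of overlapping or antisense genes cannot be told apart. The study states 3 mice per group, and whether FO B cells and ABCs with the same number came from the same aged mice is not stated, so p-values measure the spread between these libraries.

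Values were not rescaled. Genes averaging 1 FPKM or more in the libraries compared were tested with limma 3.58.1 in R 4.3.3 (trend) on log2(FPKM + 1), with Benjamini-Hochberg adjustment (FDR) over all genes tested. A fold change on this scale understates the change of genes at low FPKM. Only the libraries of the groups compared entered a fit. The procedure was tested on simulated data. Depth and read numbers were approximated from the smallest FPKM steps, with values within 0.05 of a whole number taken as whole reads, and reads were recovered for 32 of the 40 Rab genes. Promoters came from RefSeq on GRCm38.p6, with 36 of 40 members matched, Rab1 by an older symbol of Rab1a, and gene limits came from GENCODE M21. The members, role groups, regulators, markers and motifs were chosen with earlier results of these data known. Values in every library were given for Rab genes called with an absolute log2 fold change of at least 1. They were also given for others where single libraries bear on the result, which were chosen after their values were seen. Of the regulators, the 4 largest rises and decreases were named, and known partners of these members. Results that need items withheld here are not reported, 1 of those rises among them. Alternatives changed the pseudocount, filter, scaling, fit, threshold and libraries.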

Additional observations from a re-analysis of the deposited data

How the results depend on the processing

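In ABCs against aged FO B cells the 13 called Rab genes became 5 at an FDR under 0.01, 3 with an absolute log2 fold change above 1 and 0 with one above 2.3 at an FDR under 0.01. The corresponding counts were 7, 1 and 0 in place of 16 for ABCs against young FO B cells, and 22, 9 and 1 in place of 42 for the regulators and effectors. Leaving out each library in turn gave 6 to 13 Rab genes against aged FO B, 8 to 14 against young FO B, 0 to 1 between the FO B groups and 28 to 39 regulators and effectors. No share of all genes called was taken for the fits that left out a library. The other alternatives gave 12 to 18 Rab genes in the first comparison and 11 to 16 in the comparison with young FO B cells. No other alternative gave a call between the FO B groups. The log2 fold changes of Rab37 and Rab32 in ABCs against aged FO B turned from -0.25 and -0.45 to 0.17 and 0.10 without ABC replicate 3, the upper ends of leave-one-out ranges that began at -0.58 and -0.84, and the cause was not tested. With quantile normalization the difference in share, ABCs minus aged FO B, was 13.8 points for Rab39b, in place of 16.8, and -3.57 for Rab6b, in place of -2.63. Of 678 single-gene alternatives in ABCs against aged FO B, 593 kept direction and side of the threshold, 68 lost the call and 15 gained one. With the replicate number as a block, 13, 0 and 11 Rab genes and 38 regulators and effectors were called. Of the 13 against aged FO B, 11 were among the original calls: Rab6b (FDR 0.0688) and Rab8b (0.0535) lost the call, Rab2b (0.0226) and Rab30 (0.0312) gained one, and Rab21 was the only lower gene. Deviations of ABC and aged FO B libraries with the same number correlated at 0.085, -0.019 and 0.108 over 10375 genes. Those with different numbers correlated at -0.108 to 0.059. Deviations were taken from the mean of 3 libraries, which ties these correlations to each other, so whether the numbers pair the libraries cannot be told. Depth limits the low genes most, since Rab6b rested on 125 reads and Rab32 on 107 in the 3 ABC libraries.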
